A study of Mus musculus with 12 samples.

Results

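The strongest core m6A regions of the mouse colon were 510 stretches of mRNA, 202 to 2489 bases wide, in which the peak caller's score reached 3100 or more in every one of 6 mice. Peaks of the 6 deposited lists that shared at least 1 base were merged into 26654 regions, of which 7569 held a peak in all 6 lists. A region was kept when it was wider than 200 and narrower than 2500 bases and held, in each list, a peak with a score of 3100 or more. The score rises as the p-value of the peak caller falls (minus 10 times its log10), so the members were chosen from measured values, and those values are given here only as a description. The lowest score of every member across the lists was exactly 3100, a value at which scores pile up. Of the member scores, 33 in 28 members lay above it, up to 3233.06. The 510 members lay in 475 gene symbols. Another 5173 regions of the same width range also held a peak in all 6 lists but missed that score in at least 1 of them, and they are the regions that the members are set beside.

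The lists came from colon of wild-type male C57BL/6J mice, 6 to 8 weeks old and 20 to 22 g by the labels. The normal group (3 mice) was normally fed, and the TNBS group (3 mice) received 5% w/v 2,4,6-trinitrobenzenesulfonic acid, a hapten given into the colon to provoke colitis, as a model of Crohn's disease. From each mouse an input library and an m6A immunoprecipitated library were made, and the authors called 1 peak list from that pair. The series title also names licochalcone B, but no group here carries that label. The tissue is whole colon, so fewer cells of a type and less RNA per cell cannot be told apart.

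The 6 lists held 10971 to 19285 peaks, and read depth was not given in the sources used here. The labels' extraction text mentions retinas, whereas 1 of 9 retina markers had a peak in any list and 11 of 12 smooth muscle markers and 7 of 12 colonocyte markers did. All mice were labelled male, but the TNBS 1 and TNBS 3 lists held 0 peaks on the Y chromosome below position 90000000, where each normal list held 12 and the TNBS 2 list 19. Counts that set the groups against each other are therefore also given with TNBS 2 as the only TNBS list, a looser comparison of 1 list against 3. The TNBS 2 list was the shortest, with 949 peaks at a score of 3100 or more against 1861 to 3174 in the others, and members made up 53.7% of those 949. Membership turned on that list: 481 regions of the same width reached the score in 5 of the 6 lists, and 424 of them missed it in TNBS 2 alone. Without the TNBS 2 list the same rule kept 965 regions.

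N6-methyladenosine (m6A) is a methyl mark on adenosines inside mRNA. A writer complex places it in the nucleus, mostly at a short sequence in which a GGAC core is common, erasers of the AlkB family remove it, and reader proteins with a YTH domain bind it and steer splicing, export, translation or decay of the transcript. The mark is known to be dense in long internal exons and around the stop codon, and in the gut it acts in epithelial renewal and in immune cells.

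The sequences below come from the stretches of members that could be read at annotated transcript starts, and only those that held the motif are printed. They are shown because they place the GGAC core inside the first transcribed bases of their genes, among them Ep300, Junb, Klf9 and Egln2, which return in the results. The first 50 transcribed bases of 68 RefSeq start-site windows (GRCm38.p6) lay whole inside a member, and 9 of these (13.2%) held GGAC followed by any base but G on the gene strand, beside 15.4% of all 32851 windows over the same length. On either strand the shares were 29.4% and 27.9%. Matches on 1 strand cannot overlap one another. Each site is printed 5′ to 3′ on the gene strand with the motif in capitals and up to 12 bases on either side, 1 site a gene.
Foxj2: caccctgtgccgGGACCtgctccctctcc
Ep300: gaaggaggaGGACAgcgccgaggagg
Junb: gccgagcactggGGACTttgagggtggcc
Klf9: cgcggcgcggcaGGACCaggggctcagcg
Egln2: agagacaactgtGGACTtgg
Fam110c: gtagtctctactGGACAccagcc
Arhgef26: cactcagggtctGGACAggcagct
Plce1: tatctgttgtctGGACAtgatcgccaggg
Lurap1l: actaaaaggaaaGGACActgctgcagcaa
The Foxj2 site lies at chr6:122820180-122820208 on the plus strand, within a member that runs from 122819914 to 122820970. The Ep300 site lies at chr15:81586214-81586239 on the plus strand and opens its member, whose motif begins at base 10 of the transcript. The Junb site lies at chr8:84978700-84978728 on the minus strand and the Klf9 site at chr19:23141233-23141261 on the plus strand. The Egln2 site is at chr7:27165679-27165698 (minus), the Fam110c site at chr12:31073995-31074017 (plus) and the Arhgef26 site at chr3:62338803-62338826 (plus). The Plce1 site is at chr19:38524187-38524215 (plus) and the Lurap1l site at chr4:80910695-80910723 (plus). In Foxj2 and Plce1 the bases printed before the motif reach upstream of the annotated start site. A match is a description of the letters and was not tested as a methylated site.

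Members were wide for their class, and most were listed with the same edges in every mouse. Their median width was 1241 bases (quartiles 748 and 1688) against 863 bases for the other regions of the same width range. Both edges were identical to the base in all 6 lists in 373 of 510 members (73.1%), against 49.9% of the other regions. In 505 members every list held exactly 1 peak. The narrowest were 202 bases in Eif3a, a subunit of a translation initiation factor, and 207 bases in Zfp91, while the widest were 2489 bases in Zfp579 and 2470 bases in Zfp36, which encodes the mRNA decay factor tristetraprolin. Width and the lowest score belong to the rule, so these widths are a description with no test.

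The members sat inside genes more often than at their ends, going by the gene start and end of the RefSeq table. Position could be taken for 402 members and 4011 of the other regions. Of these, 59.7% of members and 47.2% of the others lay over 1000 bases from both gene ends. The share within 1000 bases of the gene end was 26.9% against 32.6%, and the share that reached the gene start was 9.70% against 11.9%. The middle of the region lay at a median of 63.9% of the gene's length against 73.3%, and the genes were longer, with a median of 40449.5 against 35175 bases. Introns are included in these lengths, and exon or UTR position was not analysed here. Junb, an intronless gene for an AP-1 subunit, was spanned from start to end, Alkbh5 and Klf9 held their member at the gene start, and Socs3 held it at the gene end.

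**Figure D1:**
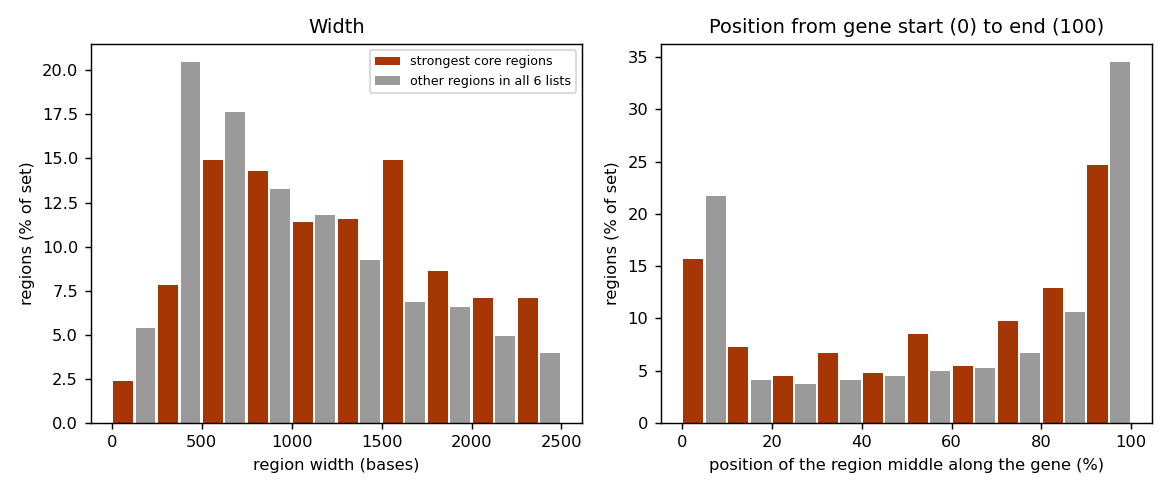
Left, width in bases (bins of 250 bases), and right, position of the region's middle along its gene in percent of gene length, both as a percentage of the regions in each set. Red bars are the strongest core regions (510 for width, 402 for position) and grey bars the other regions of the same width range in all 6 lists (5173 and 4011); the red bars lie further to the right in width and are lower than the grey ones at both ends of the gene.

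Most genes gave a single member, but 29 gave 2 and Eif5b, Spen and Tnrc18 gave 3 each. Eif5b encodes the factor that joins ribosomal subunits at initiation, Spen a large corepressor that acts in Notch signalling, and Tnrc18 a large protein of chromatin. Members were found on every autosome and on X, with 46 on chromosome 2, 46 on chromosome 7 and 5 on X. Genes whose description names a zinc finger held 31 members (6.08%), near the 5.39% of the other regions. Members of 1 gene share a transcript and are not independent of each other.

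The threshold was not a natural gap. The 3 regions just outside it were 2 regions of Bptf, a chromatin remodeller subunit, with lowest scores of 3097.63 and 3094.66, and a region of Zfp777 at 3092.96, all lowest in the TNBS 2 list. Bptf also held members, so 1 transcript lay on both sides of the limit.

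Beyond the score, each peak has a fold enrichment, the authors' ratio of immunoprecipitated to input signal in that mouse. The median fold of the members was 39.5, 32.8 and 27.9 in normal mice 1 to 3 and 45.7, 26.9 and 55.4 in TNBS mice 1 to 3. For the other regions of the same width the medians were 17.1, 14.1 and 12, and 17.3, 9.58 and 21.1. The groups overlap, with TNBS 2 lowest among the members' medians and TNBS 3 highest. A peak's score and fold come from the same reads, so the higher level of the members is a description. The typical member stood at the 93.3 to 95.5 percentile of its list by fold, yet a few stood low: the member of Mtus1, a gene for a microtubule-associated protein, had folds of 14.8, 10.3 and 8.01 in normal and 7.27, 4.51 and 7.52 in TNBS mice.

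**Figure D2:**
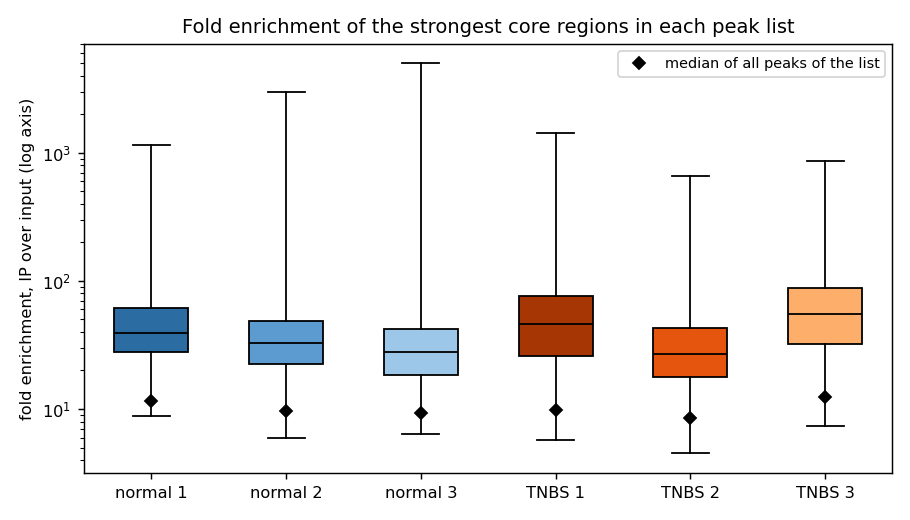
Fold enrichment (immunoprecipitated over input, log axis) of the 510 regions in each of the 6 lists; boxes span the quartiles with the median as a line, whiskers run from the lowest to the highest member, and the diamond is the median over all peaks of that list. The boxes lie above the diamond in every list, and the median is lowest in TNBS 2 (26.9) and highest in TNBS 3 (55.4).

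The members at the top by fold were in genes of varied function. Scand1, a SCAN domain gene, held a region at 2:156311846 to 156312402 with identical edges in all mice and folds of 187, 193 and 152 in normal and 267, 163 and 343 in TNBS mice. Map2k2, the MAP kinase kinase MEK2, had folds of 257, 200 and 159 in normal and 498, 110 and 584 in TNBS mice. Rrbp1, a ribosome receptor of the endoplasmic reticulum, had folds of 249, 290 and 216 in normal and 257, 98.0 and 319 in TNBS mice. In all 3 genes these folds overlap between groups, and in Map2k2 and Rrbp1 the TNBS 2 value was the lowest. On the other scales set out below, Rrbp1 stood narrowly higher in normal by order. Scand1 was higher in TNBS on the fold divided by each list's median over the regions in all 6 lists. The other leading members lay in Ppp1r9b, Trim8, Naa30, Lats2, Cdv3, Tnxb and Elmsan1. The predicted gene Gm10801 ranked above all of these and Gm21738 above Trim8, but they and Gm10800 spread widely among the lists. Gm10800 had folds of 1139.85, 2984.59 and 4224.31 in normal and 575.24, 125.76 and 89.45 in TNBS mice, a 47.2-fold range. The ranges of Gm10801 and Gm21738 were 25.2-fold and 9.84-fold. Gm10722, lower in rank, had folds of 262.5, 529.13 and 1349.67 in normal and 619.82, 436.16 and 42.02 in TNBS mice, a 32.1-fold range. None of these predicted genes had a gene identifier.

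For a typical member the highest fold was 2.59 times the lowest among the 6 lists (quartiles 2.13 and 3.34). Across the 510 members the rank correlation of fold between lists was 0.919 to 0.944 among normal mice, 0.831 to 0.887 among TNBS mice and 0.630 to 0.745 between a normal and a TNBS mouse. The 9 pairs across groups thus all lay below the 6 pairs within groups, and the 3 pairs of TNBS 2 with a normal mouse gave 0.712 to 0.745. Across the other regions of the same width the correlations were 0.787 to 0.858 among normal mice, 0.637 to 0.807 among TNBS mice and 0.494 to 0.666 across groups. There the pairs across groups were also mostly lower, but their range overlapped that among TNBS mice. This is a description over regions that share their lists, with no p. Across the same members, fold percentile was weakly and inversely related to width (rho -0.19) and to gene length (rho -0.17, 402 members), again as a description.

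To set the groups side by side without the scale of each list, every one of the 7569 regions was placed in the order of fold within its own list, as a percentile. This order was chosen as a measure after the values were seen, was not tested, and says where a region stood among the same regions in each mouse. All 3 TNBS values lay above all 3 normal values in 122 members (23.9%; background over all 7569 regions 16%), and all 3 normal values lay above the TNBS values in 120 (23.5%; background 17.8%). In either direction that is 242 members (47.5%), where 33.8% of all the regions were so separated. Separation by order includes small differences. The median difference of TNBS minus normal was 10.6 points in the 122 and -11.8 points in the 120. On the fold as listed, the counts were 74 and 37 (background 7.97% and 6.83%). A further scale was the fold divided by the median fold of the 7569 regions in that list. On it the counts were 161 and 81 of the 510 (background 17.1% and 16.4%). The share of separated members that were higher in TNBS was thus 50.4% by order and 66.7% and 66.5% on those scales. None of the 242 was separated the other way on either scale, and 89 were separated on all 3. With TNBS 2 as the only TNBS list, 232 members (45.5%; background 35.1%) were higher in TNBS by order and 165 (32.4%; background 35.5%) higher in normal, so the share higher in normal was then below the background.

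Transcripts of the m6A machinery itself held 6 members, with separated ones in both directions. Alkbh5, an eraser, carried its member at chr11:60537683-60539195, at the gene start, with folds of 34.5, 37.1 and 33.9 in normal and 152, 87.5 and 207 in TNBS mice. Zc3h13, a nuclear subunit of the writer complex, carried its member at chr14:75330069-75331259, with folds of 177, 138 and 130 in normal and 64.9, 53.9 and 95.6 in TNBS mice. The 2 thus stood on opposite sides, Alkbh5 higher and Zc3h13 lower in every TNBS list, on all 3 scales. In the order of all 7569 regions Alkbh5 stood at 84.3, 92.3 and 93.1 in normal and at 99.4, 99.5 and 99.6 in TNBS mice. Zc3h13 stood at 99.8 in each normal mouse and at 95.4, 98.2 and 96.8 in TNBS mice. Of 11 writer complex genes, 7 had a region in all 6 lists and Zc3h13 alone held a member. Mettl3, the catalytic subunit, had no listed peak. The eraser Fto had a region in all 6 lists that was not among the members.

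All 4 of the readers with a member were YTH proteins. Ythdf2, which brings marked mRNA to decay, had folds of 28.3, 23.9 and 16.8 in normal and 15.9, 9.01 and 16.4 in TNBS mice, every TNBS value below every normal one by a narrow margin. Ythdf3 had 16.6, 13.6 and 8.93 in normal and 11.6, 6.48 and 10.5 in TNBS mice, which overlap as listed, while in the order the TNBS values of 24.6, 21.1 and 11 lay below the normal values of 44.6, 43.3 and 25.8. Ythdf1, best known for translation of marked mRNA, ran the other way in the order, at 26.2, 29.5 and 43.5 in normal and 69.2, 58.6 and 78.3 in TNBS mice. Its folds as listed were 12.4, 11.1 and 11.6 in normal and 25.3, 11.5 and 39.1 in TNBS mice, so there TNBS 2 lay inside the normal range. Ythdc1, the nuclear reader, had folds of 82.7, 61.5 and 49.6 in normal and 44.7, 50.9 and 66.6 in TNBS mice, and the groups overlap on every scale. The edges of all 6 of these members, eraser and writer included, were identical in the 6 lists, so the covered bases did not differ.

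**Figure D3:**
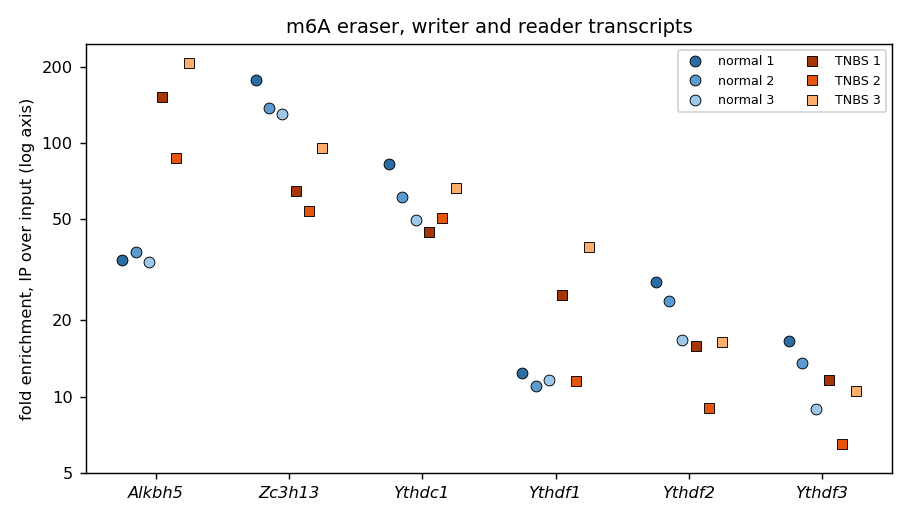
Fold enrichment (log axis) of the member in the eraser Alkbh5, the writer subunit Zc3h13 and the readers Ythdc1, Ythdf1, Ythdf2 and Ythdf3, 1 point per mouse (circles normal, squares TNBS). Alkbh5 lies higher in all 3 TNBS mice and Zc3h13 and Ythdf2 lower, while the points of Ythdc1, Ythdf1 and Ythdf3 overlap between groups.

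Chromatin regulators supplied many members. Of 5299 genes with a region in all 6 lists, 475 (8.96%) held a member, and the same count was 11 of 23 for histone methyltransferases and coactivators, 7 of 19 for chromatin remodellers and 3 of 10 for nuclear corepressors. These lists were written with earlier results of the data known, so the counts are a description. A gene with more regions has more chances to hold a member. Genes with a member had a median of 4 regions, against 2 for all genes with a region in all 6 lists, and the counts were not adjusted for this. By order, 4 of the 16 members in the methyltransferase and coactivator list stood higher in TNBS, 7 higher in normal and 5 overlapped, where 23.9% and 23.5% of all members and 16% and 17.8% of all regions were higher in TNBS and in normal. Ep300, the p300 histone acetyltransferase, had folds of 40.9, 37.5 and 32.1 in normal and 79.0, 50.4 and 157 in TNBS mice, with no overlap. Kmt2d, a methyltransferase of histone H3 lysine 4, held 2 members that both stood higher in the order in TNBS, and the fold of one was 41.7, 34.3 and 30.3 in normal and 105, 34.7 and 122 in TNBS mice. As listed, the TNBS 2 value of that member lay within the normal range. Setd2, which methylates histone H3 on lysine 36, ran the other way, at 91.8, 85.8 and 75.4 in the order in normal and 46.2, 61.5 and 47.1 in TNBS mice, although its folds of 45.0, 29.6 and 19.4 in normal and 16.7, 12 and 21 in TNBS mice overlap as listed. Ash1l, a further histone methyltransferase, likewise stood lower in the order in every TNBS list. Among the 10 members of remodellers 3 stood higher in normal, 1 higher in TNBS and 6 overlapped, beside 47.5% of all members and 33.8% of all regions separated in either direction. The subunit Arid1a of the SWI/SNF complex had folds of 78.5, 68.6 and 56.6 in normal and 95.2, 38.7 and 94.3 in TNBS mice for its stronger member, which overlap as listed. In the order that member stood narrowly higher in normal, at 98.2, 98.4 and 98.2 in normal and 98.1, 96.3 and 96.7 in TNBS mice.

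Signalling genes held members in a lower share than the chromatin lists did. The TGF-beta and BMP list had 16 genes with a region in all 6 lists and 3 with a member (18.8%, beside 8.96% of all genes), Ski, Smad1 and Tgfbr2. These 3 stood higher by order in TNBS, as did 23.9% of all members and 16% of all regions, and the list was not tested. Ski, a repressor of SMAD transcription, had folds of 87.2, 81.6 and 65.8 in normal and 198, 128 and 224 in TNBS mice. Smad1, a transducer of BMP signals, had 28.3, 23.3 and 19.1 in normal and 33.8, 40.2 and 39.8 in TNBS mice. Neither overlaps between groups. Tgfbr2, the type II receptor, had 17.9, 15.1 and 14.2 in normal and 31.9, 16.1 and 30.9 in TNBS mice, so that TNBS 2 fell inside the normal range as listed. The other 13 genes with such a region held no member.

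Among inflammatory signalling genes 3 of 17 held a member (17.6%, beside 8.96% of all genes). Socs3, a feedback inhibitor of cytokine signalling, had folds of 35.6, 24.9 and 21.8 in normal and 97.7, 66.3 and 59.8 in TNBS mice, with every TNBS value the higher. Tnfrsf1a, the main receptor for TNF, stood higher in the order in TNBS, with folds of 21.9, 18.2 and 14.2 in normal and 47.7, 17 and 47.4 in TNBS mice that overlap as listed. Tnfaip3, the NF-kappaB inhibitor A20, had 46.8, 31.1 and 23.5 in normal and 43.6, 23.9 and 57.6 in TNBS mice, which overlap.

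In the list of immediate early genes and Myc 4 of 13 genes (30.8%) held a member, beside 8.96% of all genes. Among Krüppel-like and intestinal identity transcription factors 3 of 16 (18.8%) did. Klf9, a Krüppel-like factor induced by glucocorticoids, had folds of 27.2, 25.4 and 18.9 in normal and 76.8, 51.8 and 115 in TNBS mice, without overlap. Junb stood at 88.7, 86.2 and 83.8 in the order in normal and at 98.6, 96.0 and 97.0 in TNBS mice, while as listed its folds of 39.5, 30.1 and 23.7 and of 109, 37.6 and 98.1 overlap through TNBS 2. Elf3, an epithelial ETS factor, also stood higher in the order in TNBS. Klf7, a further Krüppel-like factor, overlaps in the order, at 93.6, 86.2 and 91.8 in normal and 85.9, 90.8 and 80.9 in TNBS mice. Zfp36, Ier5 and Ier2 overlap between groups in the order.

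Among epithelial junction and polarity genes 4 of 18 held a member (22.2%, beside 8.96% of all genes). Plekha7, an adherens junction protein, had folds of 39.5, 28.4 and 22.8 in normal and 87.9, 68.0 and 119 in TNBS mice. Camsap3, which anchors microtubules at the apical side of epithelial cells, had 20.8, 14.8 and 16 in normal and 67.4, 27.8 and 62.2 in TNBS mice. Both were higher in every TNBS list on all 3 scales, whereas Cldn3 overlaps between groups. In the Hippo list 4 of 16 genes (25%) held a member, in the Notch list 3 of 13 (23.1%) and in the Wnt list 1 of 16 (6.25%), beside 8.96% of all genes. Of 8 DNA damage and cell cycle genes with a region in all 6 lists, 0 held a member, a list too short to set apart from that share.

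Few markers of single cell types had a region in all 6 lists. Of those, 3 of 7 smooth muscle markers (Synm, Lmod1 and Mylk), the 1 secretory marker (Chga of enteroendocrine cells) and 1 of 3 endothelial markers (Cdh5) held a member, beside 8.96% of all genes. Chga, a protein of secretory granules, had folds of 91.4, 74.3 and 87.3 in normal and 143, 273 and 862 in TNBS mice, all TNBS values higher as listed, but in the order the groups overlap, at 98.9, 98.7 and 99.5 in normal and 99.4, 99.9 and 100 in TNBS mice. The smooth muscle markers overlap as listed and in the order, Synm with folds of 114, 132 and 166 in normal and 203, 54.5 and 254 in TNBS mice. On the fold divided by each list's median over the regions in all 6 lists, Lmod1 was higher in TNBS. Markers of colonocytes and epithelium also held 0 members, and only 1 of those 12 genes had a region in all 6 lists. Markers of macrophages, neutrophils, lymphocytes, fibroblasts, enteric neurons and glia, and adipocytes held 0 members, but only 2, 0, 0, 1, 2 and 1 of them had a region in all 6 lists. A fold is a ratio to the input of the same mouse, so it is not a level of the transcript, and the part of changed cell make-up in these values was not tested.

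The widest separations by order lay mostly in genes outside these lists. Higher in TNBS, the largest difference was in Fam193b, at 32.8, 31.0 and 38.3 in normal and 84.2, 85.9 and 88.8 in TNBS mice. The clone-named gene 2010300C02Rik came next, at 32.7, 23.7 and 38.5 in normal and 84.4, 79.2 and 82.8 in TNBS mice. It was followed by Sgta, a co-chaperone of tail-anchored proteins, at 36.4, 49.2 and 42.8 in normal and 89.4, 83.9 and 86.0 in TNBS mice. Of the 12 members with the largest difference in this direction, clone and model names left out, Ythdf1 and the RNA-binding protein gene Rbm47 overlap in fold as listed. Aoc3, a vascular amine oxidase, Egln2, an oxygen-sensing prolyl hydroxylase, and the linker histone Hist1h1c stood higher on all 3 scales.

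Higher in normal mice were Usp47, a deubiquitinase, at 89.7, 91.1 and 84.9 in normal and 30.9, 52.7 and 40.1 in TNBS mice, and Ppig, a prolyl isomerase of the spliceosome, at 91.2, 91.0 and 92.3 in normal and 61.9, 73.8 and 3.3 in TNBS mice. Ncl, the nucleolar protein nucleolin, stood at 71.4, 76.9 and 83.0 in normal and 30.2, 51.6 and 20.4 in TNBS mice. Rbm25, a splicing regulator, stood at 93.1, 92.5 and 94.5 in normal and 70.6, 87.6 and 22.9 in TNBS mice. For Ppig and Rbm25 the TNBS 3 list was far below the other two TNBS lists. Of the 12 largest in this direction, Ash1l, Setd2 and the cohesin loader Nipbl overlap in fold as listed.

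**Figure D4:**
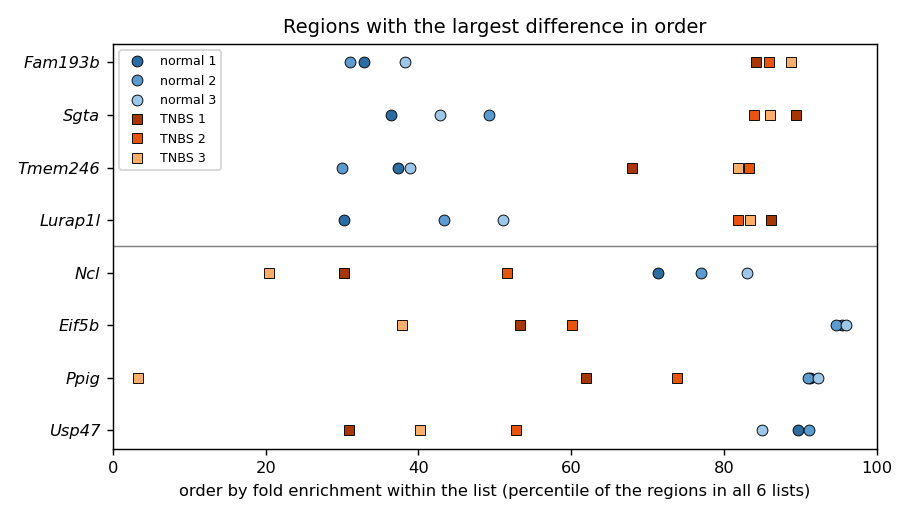
Place of each member in the order of fold within its list (percentile among the 7569 regions in all 6 lists), 1 point per mouse (circles normal, squares TNBS), for the 4 members with the largest difference higher in TNBS (top) and the 4 higher in normal (bottom), genes with clone or model names left out. The members were chosen for this separation; the spread among TNBS mice is wide for Ppig.

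Several features differed between the members on either side. Where position was known, the members higher in TNBS had their middle at a median of 78.1% of the gene (95 members), those higher in normal at 57.3% (96 members) and the overlapping ones at 61.0% (211 members). Genes were 33905, 57570 and 37664 bases long in the median. At the gene start lay 12 of 95, 4 of 96 and 23 of 211 members. With TNBS 2 as the only TNBS list the medians were 71.5%, 61.1% and 59.7%, the gene lengths 33376, 50714 and 56004.5 bases, and the members at the gene start 20 of 175, 11 of 129 and 8 of 98. These are descriptions of sets chosen by their values.

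Regions of 1 gene tended to stand on the same side. The genes of the 122 members higher in TNBS held 116 other regions in all 6 lists, and 83 of these (71.6%) had a higher mean order in TNBS. The genes of the 120 members higher in normal held 144, of which 103 (71.5%) had a higher mean order in normal. Over all 7059 regions that are no member, 49% had a higher mean order in TNBS. Set by TNBS 2 alone, the counts were 74 of 116 (63.8%) and 86 of 144 (59.7%), and 49.3% over all. Among the 32 genes with more than 1 member, 9 had separated members in the TNBS direction alone, 14 in the normal direction alone, 9 had none and 0 had both. With TNBS 2 alone these counts were 11, 12, 4 and 5, so genes with members in both directions then occurred. Eif5b gave an example: its members stood lower in the order in every TNBS list, with folds of 55.1, 43.1 and 41.4 in normal and 18.9, 11.8 and 18.2 in TNBS mice for the one at chr1:38018865-38019534. In Tnrc18, 2 of the 3 members stood higher in TNBS and the third overlaps, with folds of 36.0, 27.8 and 22.8 in normal and 124, 41.0 and 95.5 in TNBS mice for the one at chr5:142771305-142772303.

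The extent of the peaks rarely separated the groups. It is a measure other than score and fold, but the rule limited the width of the merged region. No list could therefore cover 2500 bases or more of a member. Covered bases differed between any lists in 137 members. All 3 TNBS values exceeded all 3 normal values in 3 members (0.588%; background over the 7569 regions 0.766%), and the reverse held in 8 members (1.57%; background 3.03%). The median difference was 0. Of the 137 members that differed at all, the shares were 2.19% and 5.84%, beside 1.59% and 6.27% of all regions that differed, so the members lay near the other regions by that count. For a single region the exact two-sided permutation test of 3 against 3 cannot go below 0.1, so none can pass 0.05. With TNBS 2 as the only TNBS list the counts were 13 (2.55%; background 2.27%) and 75 (14.7%; background 31.6%).

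Cebpd, a transcription factor of acute inflammation, had the largest difference. Its peak covered 1493, 1538 and 1551 bases in normal mice and 2260 bases in each TNBS mouse, or 1527 ± 30.4 against 2260 ± 0 (SD, n = 3 each; exact permutation p = 0.1). All the lists began the peak at 15887286 on chromosome 16, and the TNBS peaks ended at 15889545 where the normal ones ended from 15888778 to 15888836. Its fold overlaps, at 145, 84.0 and 94.9 in normal and 135, 95.4 and 120 in TNBS mice.

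Bmp3, a BMP family ligand, covered 1134, 1182 and 1431 bases in normal mice and 1731 bases in each TNBS mouse, or 1249 ± 159 against 1731 ± 0 (SD, n = 3 each; exact permutation p = 0.1). The guanine nucleotide exchange factor gene Arhgef26 completed the group with 2185, 2205 and 2144 bases against 2230 in each TNBS mouse, a difference of means of 52 bases.

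Phip, a bromodomain protein gene, covered 1650, 1450 and 1347 bases in normal and 1150, 1079 and 1046 bases in TNBS mice, or 1482 ± 154 against 1092 ± 53.1 (SD, n = 3 each; exact permutation p = 0.1). Tnfaip3 covered 2085, 2038 and 2061 bases in normal and 1828, 1303 and 1969 bases in TNBS mice, or 2061 ± 23.5 against 1700 ± 351 (SD, n = 3 each; exact permutation p = 0.1). In Tnfaip3 the difference rests on TNBS 2 more than on TNBS 3, which lay 69 bases below the nearest normal mouse. Wdr20, Hmgn5, Sec62, Brwd1, Oat and Cdk9 were the others. Read along the gene, the downstream edge lay further out in all normal than in all TNBS mice in 8 of the 402 members with a known strand (background 2.78%) and in the reverse sense in 0 (background 0.814%). The upstream edge lay further out in TNBS in 1 (background 0.204%) and in normal in 0 (background 0.322%). With TNBS 2 alone the downstream edge lay further out in normal in 48 (background 24.8%) and in TNBS in 7 (background 2.26%), and the upstream edge in TNBS in 2 (background 0.628%) and in normal in 9 (background 9.43%).

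**Figure D5:**
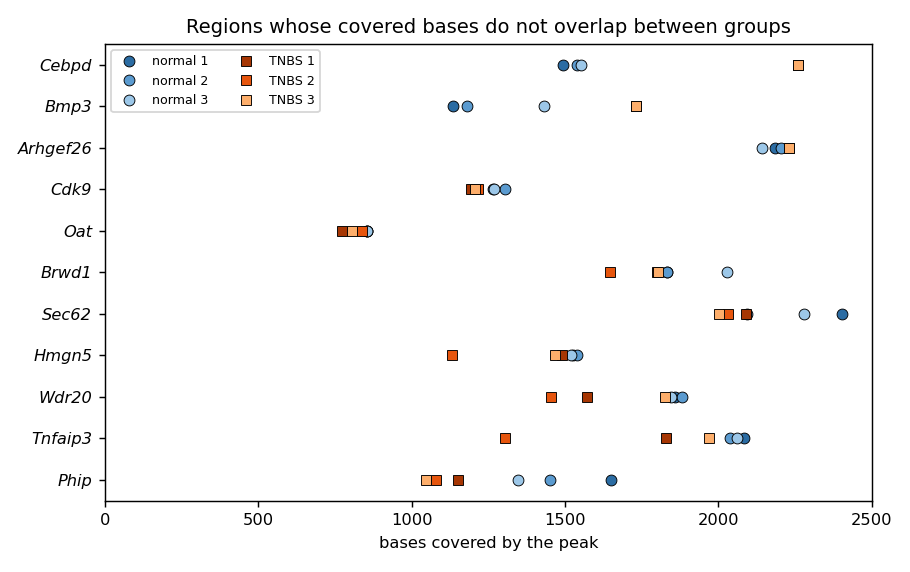
Bases covered by the peak in each mouse (circles normal, squares TNBS; where TNBS values are equal the points coincide) for the 11 members whose values do not overlap between groups. In Cebpd, Bmp3 and Arhgef26 all TNBS mice lie to the right of the normal mice, and in the other 8 to the left.

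The genes that hold a member also held 1630 other regions. Of these, 11 (0.675%) had a peak in 3 of 3 TNBS and 0 of 3 normal lists, where 0.968% of all 26144 regions that are no member did. In the reverse sense there were 18 (1.10%; background 1.57%). With TNBS 2 as the only TNBS list the counts were 49 (3.01%; background 4.71%) and 195 (12%; background 14.1%). The TNBS-only regions included those of Bod1l, which protects replication forks, and Tacc2, a centrosomal protein. The normal-only regions included 2 of Nfib, a nuclear factor I gene, and 2 of Zc3h13, at chr14:75308909-75309048 and chr14:75315881-75316078, beside the member of that gene, which was listed in all mice. Transcript level and depth also decide whether a peak is listed, and their part was not tested.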

How the data were processed

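The authors deposited 1 list of m6A peaks in mRNA per mouse, called in each mouse from its immunoprecipitated library and input. The submitters' processing notes name CASAVA 1.8, BWA and the build hg19. That build is human, while the listed positions are those of the GRCm38 mouse genes of the same identifier, so mouse coordinates are given, counted from 1. The caller's settings are not given in the sources used here. Per the file headers, the deposited columns are a score (10 times the −log10 of the p-value), a fold enrichment (ratio of immunoprecipitated to input signal) and a false discovery rate in percent. These are the authors' own values and were tested between no lists. The deposited false discovery rate at a score of 3100 or more was 12.5% or higher in the normal lists and 52.4% or higher in the TNBS lists, and it was not used as a filter. In the TNBS 2 list it was 100% for every such peak, and in TNBS 3 it was 92.3% or higher with a median of 100%.

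Peaks were merged and compared with Python 3.11.15, pandas 2.3.3 and numpy 2.4.6 (scipy 1.17.1 for correlations). The groups were compared by separation of 3 against 3 values, over all 7569 regions, with exact two-sided permutation tests for single regions. The separation step was tested on simulated data. Each list comes from 1 labelled mouse, so p-values measure the spread between these 6 samples. Same-numbered mice did not deviate together (correlations from -0.09 to 0.07), so numbers were not used to pair mice. Members and gene lists were chosen with earlier results of these data known. Named genes were the members at the top by fold percentile (10), those separated in covered bases (up to 8 a direction), all in m6A genes, up to 4 genes of each other list, and the extremes of width and number. Those of the order were chosen after its values were seen, as were Mtus1, Gm10722, Gm10800, Gm10801 and Gm21738. Results for a few genes under this rule are not reported here. RefSeq gene and start-site tables (GRCm38.p6) gave positions and sequence.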

Additional observations from a re-analysis of the deposited data

How the results depend on the processing

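The number of members was 1359 at a score of 1000 or more and ranged from 512 to 965 when each list was left out in turn, the highest without TNBS 2; a slightly lower score, an added fold of at least 10 and an overlap of 50% kept it within 1.5 times, and other width limits were not run. Members with more bases covered in normal mice numbered 14 after centring log2 bases on each list, where equal values separate by an offset alone, 5 when the means also had to differ by 10%, and 10 to 21 with 1 list left out. Members with more bases covered in TNBS numbered 5 to 10 with 1 list left out and 6 with the replicate block, a pairing by replicate number that the design does not give. Without TNBS 1 and TNBS 3 the counts of covered bases were 13 in TNBS and 75 in normal. By order of fold, counts were 66 and 66 when means also had to differ by 10 points. The share over all regions was not computed for that setting. Counts were 74 in TNBS and 37 in normal on the fold as listed, and 232 in TNBS without TNBS 1 and TNBS 3. Leaving out a list loosens the rule of separation, so those counts tend to grow. The share of members near the gene end stayed between 24.9% and 29.6%. With 3 mice a group and depth unknown, the smallest p is 0.1, and most member scores are tied at 3100, so members cannot be ranked by score.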
